A study of Mus musculus with 8 samples.

Results

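This account covers 9 receptor genes of mouse macrophages, Cxcr4, Ccr1, Ccr2, Cx3cr1, Gpr183, Cnr2, Lpar6, P2ry6 and P2ry14. They were taken by gene symbol, as receptors for chemokines, lipids and nucleotides that LPS had lowered in an earlier look at these arrays, and all of their probes were used. They are 9 of the 19053 genes with a named probe and hold 13 of the 45281 probes. Not all of them fit that description in these data. Ccr1 and Ccr2 were detected on no array, and P2ry14 was not lowered by LPS in either genotype.

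Total RNA came from primary bone marrow-derived macrophages of 10-week-old male mice, all on the c57Bl6/J background. The 4 groups were LPS-stimulated cells labelled BCL6KO, unstimulated cells labelled BCL6KO, LPS-stimulated wild-type cells and unstimulated wild-type cells, each on 2 single-colour Illumina bead arrays. LPS is the bacterial cell-wall lipid sensed through Tlr4, and Bcl6 is a zinc-finger repressor of transcription, given as Bcl6-/- in the genotype of the cells labelled BCL6KO. The sources used here give neither the LPS dose and time nor the part of Bcl6 that was deleted. Both arrays of each group carry a technical replicate label, so n = 2 arrays throughout, and every p-value measures only the spread between such arrays.

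Receptors of this kind sit in the cell membrane and pass the binding of a ligand outside the cell to G proteins inside it. In macrophages and their monocyte precursors they direct migration towards chemokines, oxysterols and other lipids, and they sense nucleotides released by stressed or dying cells. Cxcr4 binds the chemokine Cxcl12 and holds leukocytes in the bone marrow. Ccr1 and Ccr2 bind inflammatory CC chemokines, and Ccr2 is required for monocytes to leave the marrow. Cx3cr1 binds fractalkine. Gpr183 binds oxysterols made through the enzyme Ch25h, Cnr2 binds endocannabinoids and Lpar6 binds lysophosphatidic acid. P2ry6 binds UDP, and P2ry14 binds UDP-glucose.

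Signals were compared on the log2 scale after background correction and quantile normalization. Between 11857 and 13209 probes were detected on an array, meaning a detection p under 0.01 against its negative controls. Across genes, which are not independent replicates, arrays of the same group correlated with r of 0.993 to 0.995 and arrays of different groups with r of 0.882 to 0.953. The Bcl6 probe read 9.92 and 9.93 on the LPS arrays labelled BCL6KO and 12.60 and 12.33 on the unstimulated arrays labelled BCL6KO. On wild-type arrays it read 10.75 and 10.99 with LPS and 10.95 and 10.92 without. The unstimulated cells labelled BCL6KO thus had the highest Bcl6 signal, so the probe showed no loss of Bcl6 transcript there. The label could not be checked by this probe, and every direction below refers to the label. Whether this probe lies in the deleted part is not known here. All 8 macrophage markers on the array were detected in every group. Of the LPS response genes, 7 were tested, among them Tnf and Cxcl1, and 7 rose with LPS in the cells labelled BCL6KO and 7 in wild-type cells.

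Calls required limma's adjusted p to be under 0.05 and the fitted change to be at least 2-fold. Changes are log2 differences ± standard error (SE). Where both arrays of the dimmer group were below detection, the fold is a lower bound, written as at least N-fold. A call uses the fitted change, so a gene counted as called can have a bound under 2-fold. For such a gene a change of 2-fold is not established. Such bounds hold for the processing used here. Ccr1 and Ccr2 could not be tested. The Ccr1 probe had a raw intensity between 95.3 and 126 over the 8 arrays, with a detection p of 0.405 to 0.938. The Ccr2 probes read 99.5 to 125 and 91.7 to 110.1, with a detection p of at least 0.433. No order between groups can be read from such values. The other 7 receptors were detected on at least 2 arrays and were tested.

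**Figure D1:**
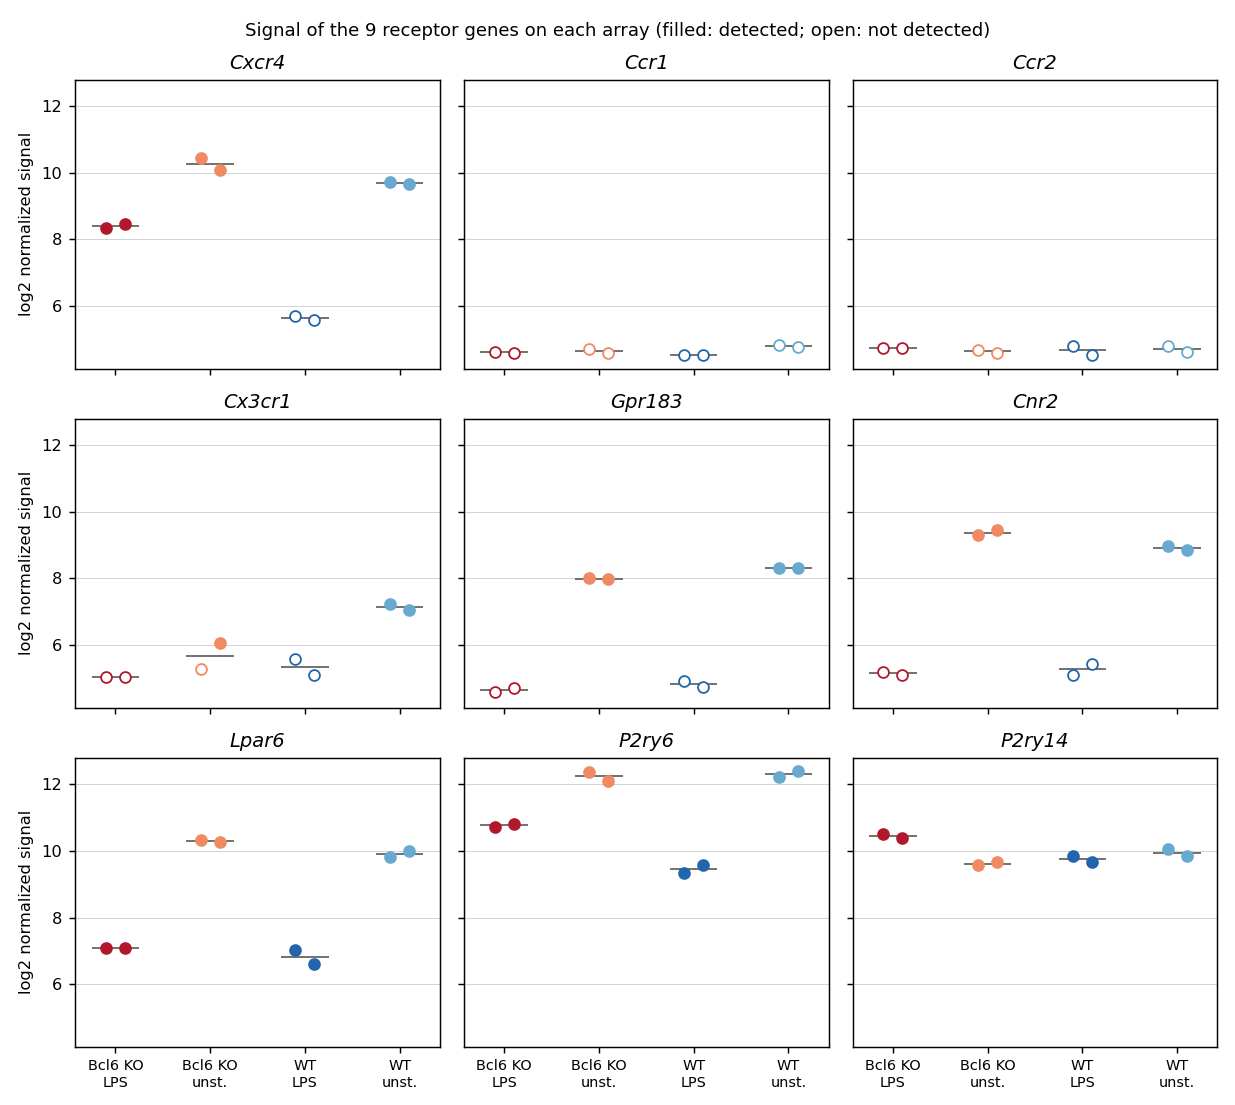
Log2 normalized signal (vertical axis) of the brightest probe of each of the 9 receptors on the 8 arrays, by group. Points are arrays, filled where the probe was detected and open where it was not, and the line is the mean of 2 arrays. Gpr183, Cnr2 and Lpar6 are low on all 4 LPS arrays, Cxcr4 is detected on the LPS arrays labelled BCL6KO and not on the wild-type LPS arrays, and Ccr1 and Ccr2 are not detected.

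Promoter windows were read to see what the receptors share in sequence, since several of them moved together. RefSeq windows on GRCm38.p6, from 250 bases before to 50 after a start site, matched 8 of the 9 receptors in 12 windows, 4 of them of P2ry14 and 2 of Cnr2. P2ry6 was not matched. Shown are 4 windows of receptors that were low on LPS arrays and 1 of P2ry14, which was not. Capitals mark matches to the motifs named below, and a window in lower case throughout holds none of them.
Cxcr4, chr1:128592250-128592549, minus strand: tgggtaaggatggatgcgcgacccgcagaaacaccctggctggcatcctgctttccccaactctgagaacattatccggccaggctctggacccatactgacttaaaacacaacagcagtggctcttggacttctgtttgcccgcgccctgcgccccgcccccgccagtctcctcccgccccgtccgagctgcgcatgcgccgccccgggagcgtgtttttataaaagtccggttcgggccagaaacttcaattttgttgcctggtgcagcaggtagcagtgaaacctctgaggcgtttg
Gpr183, chr14:121965144-121965443, minus strand: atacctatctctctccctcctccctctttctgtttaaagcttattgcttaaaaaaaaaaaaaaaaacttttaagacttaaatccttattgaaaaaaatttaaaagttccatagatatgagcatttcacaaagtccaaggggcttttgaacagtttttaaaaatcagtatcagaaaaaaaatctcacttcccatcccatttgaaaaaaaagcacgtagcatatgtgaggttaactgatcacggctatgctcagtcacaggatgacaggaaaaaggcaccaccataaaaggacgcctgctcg
Lpar6, chr14:73237641-73237940, plus strand: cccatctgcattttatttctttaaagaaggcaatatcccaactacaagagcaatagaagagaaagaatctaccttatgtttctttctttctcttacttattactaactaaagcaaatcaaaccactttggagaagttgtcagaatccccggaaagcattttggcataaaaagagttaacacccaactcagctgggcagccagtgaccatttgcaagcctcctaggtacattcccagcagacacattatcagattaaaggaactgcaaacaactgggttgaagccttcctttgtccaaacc
Cnr2 second window, chr4:135911430-135911729, plus strand: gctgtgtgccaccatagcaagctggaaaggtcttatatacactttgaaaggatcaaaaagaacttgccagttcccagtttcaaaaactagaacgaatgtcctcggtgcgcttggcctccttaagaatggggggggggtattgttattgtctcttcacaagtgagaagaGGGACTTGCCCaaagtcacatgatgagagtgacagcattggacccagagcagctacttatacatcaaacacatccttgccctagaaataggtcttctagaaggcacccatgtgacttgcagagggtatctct
P2ry14 first window, chr3:59153443-59153742, minus strand: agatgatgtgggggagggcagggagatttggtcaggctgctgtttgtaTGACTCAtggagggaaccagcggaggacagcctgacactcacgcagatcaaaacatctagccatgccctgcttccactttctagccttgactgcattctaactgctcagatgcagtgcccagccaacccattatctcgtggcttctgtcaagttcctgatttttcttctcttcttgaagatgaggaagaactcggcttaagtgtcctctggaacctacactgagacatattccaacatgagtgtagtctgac

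The motifs were searched on both strands. The AP-1 motif TGANTCA was in 2 of the 12 windows, both of P2ry14, and in 7.81% of all 32851 windows. A loose NF-kappaB motif, GGG and CC with 5 free bases between them, was in 4 of the 12, of Ccr1, Cx3cr1, Cnr2 and P2ry14, and in 50.8% of all windows. In the second Cnr2 window it matched on both strands, 1 base apart, so the capitals there mark 2 overlapping matches. The PU.1 motif AGGAAGT, an IRF motif of GAAA repeated after 2 free bases, and the Bcl6 and Stat motif TTCNNNGAA were in 0 of the 12 windows, and in 9.35%, 3.44% and 8.3% of all windows. The Cxcr4 window held 20 CpG dinucleotides and the others 1 to 5, beside a median of 7 over all windows. A match describes the letters of this window only, and so does its absence.

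The response to LPS is described first. It is the contrast that chose the genes, so its values are given without a test. Of the 7 receptors, 5 had a fitted change of at least 2-fold downwards and 0 upwards in the cells labelled BCL6KO, and 6 downwards and 0 upwards in wild-type cells. By the same size alone, 7.36% of all 8306 tested genes were lower and 7.49% higher in the cells labelled BCL6KO, and 6.5% lower and 7.54% higher in wild-type cells. By the calling rule, used below for genes that are not among the receptors, 7.36% were lower and 7.49% higher in the cells labelled BCL6KO, 14.8% in all. In wild-type cells 6.5% were lower and 7.52% higher, 14% in all. Median scaling gave 939 lower and 497 higher genes in the cells labelled BCL6KO, against 611 and 622 after quantile normalization. Nothing is read from these counts. The median change of the receptors was -1.86 in the cells labelled BCL6KO and -3.09 in wild-type cells, beside -0.12 over all tested genes in either genotype.

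Gpr183 and Cnr2 lost their detected signal with LPS in both genotypes. Gpr183 read 4.60 and 4.71 on the LPS arrays labelled BCL6KO, against 8.001 and 7.99 on the unstimulated ones. Wild-type cells gave 4.91 and 4.76 with LPS, against 8.33 and 8.31 without. All 4 LPS arrays were below detection, so that Gpr183 was at least 3.86-fold lower in the cells labelled BCL6KO and at least 5.45-fold lower in wild-type cells. Cnr2 read 5.20 and 5.11 on the LPS arrays labelled BCL6KO, against 9.30 and 9.45 on the unstimulated ones. Wild-type cells gave 5.11 and 5.44 with LPS, against 8.98 and 8.85 without. It too was below detection on all 4 LPS arrays, at least 10.0-fold lower in the cells labelled BCL6KO and at least 8.26-fold lower in wild-type cells. A second Cnr2 probe was at least 6.01-fold lower in the cells labelled BCL6KO and at least 7.07-fold lower in wild-type cells.

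Lpar6 was lower with LPS in both genotypes and stayed detectable on all 8 arrays. It read 7.08 and 7.07 on the LPS arrays labelled BCL6KO, against 10.33 and 10.25 on the unstimulated ones. Wild-type cells gave 7.02 and 6.62 with LPS, against 9.81 and 10.01 without. The change was -3.21 ± 0.15 in the cells labelled BCL6KO and -3.09 ± 0.15 in wild-type cells, and the LPS and unstimulated arrays did not overlap in either genotype.

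Cxcr4 fell below detection with LPS in wild-type cells but not in the cells labelled BCL6KO. It read 8.34 and 8.46 on the LPS arrays labelled BCL6KO, against 10.44 and 10.09 on the unstimulated ones. Wild-type cells gave 5.71 and 5.57 with LPS, against 9.71 and 9.65 without. The wild-type LPS arrays were below detection, at least 14.03-fold lower. The LPS arrays labelled BCL6KO remained detected, at a change of -1.86 ± 0.14.

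P2ry6 was detected on all 8 arrays, and its LPS arrays lay below its unstimulated arrays in both genotypes. It read 10.72 and 10.82 on the LPS arrays labelled BCL6KO, against 12.36 and 12.11 on the unstimulated ones. Wild-type cells gave 9.35 and 9.58 with LPS, against 12.20 and 12.39 without. The change was -1.46 ± 0.14 in the cells labelled BCL6KO and -2.83 ± 0.14 in wild-type cells.

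Cx3cr1 was detected on both arrays of only 1 group, the unstimulated wild-type cells. It read 5.05 and 5.06 on the LPS arrays labelled BCL6KO, against 5.30 and 6.08 on the unstimulated ones. Wild-type cells gave 5.59 and 5.10 with LPS, against 7.24 and 7.04 without. Of the arrays labelled BCL6KO only the unstimulated one at 6.08 was detected. Cx3cr1 was at least 2.41-fold lower with LPS in wild-type cells, and no bound above 1-fold could be given for the cells labelled BCL6KO.

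These sizes depend on the background correction. Without it the fitted change of Cx3cr1 in wild-type cells was -0.80, and with the authors' processed values -0.89, both under 2-fold. Without it Gpr183 changed by -1.73 in the cells labelled BCL6KO and -1.83 in wild-type cells, and Cnr2 by -2.53 in the cells labelled BCL6KO and -2.10 in wild-type cells. Cxcr4 then changed by -1.60 in the cells labelled BCL6KO and -2.62 in wild-type cells. Where a lower bound is given above for one of these, the fitted change without background correction was smaller than that bound. The direction of each of the 6 receptors that were lower in wild-type cells was the same in both genotypes under every alternative in which it was tested.

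P2ry14 did not follow the other receptors. Its brightest probe read 10.52 and 10.40 on the LPS arrays labelled BCL6KO, against 9.58 and 9.66 on the unstimulated ones. Wild-type cells gave 9.84 and 9.68 with LPS, against 10.07 and 9.83 without. The wild-type groups overlap, and the LPS arrays labelled BCL6KO are the highest. The change with LPS was 0.84 ± 0.12 in the cells labelled BCL6KO and -0.19 ± 0.12 in wild-type cells. A second kept probe gave 0.92 ± 0.16 in the cells labelled BCL6KO and -0.057 ± 0.16 in wild-type cells. One more P2ry14 probe was detected on no array, with a detection p of at least 0.0342.

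**Figure D2:**
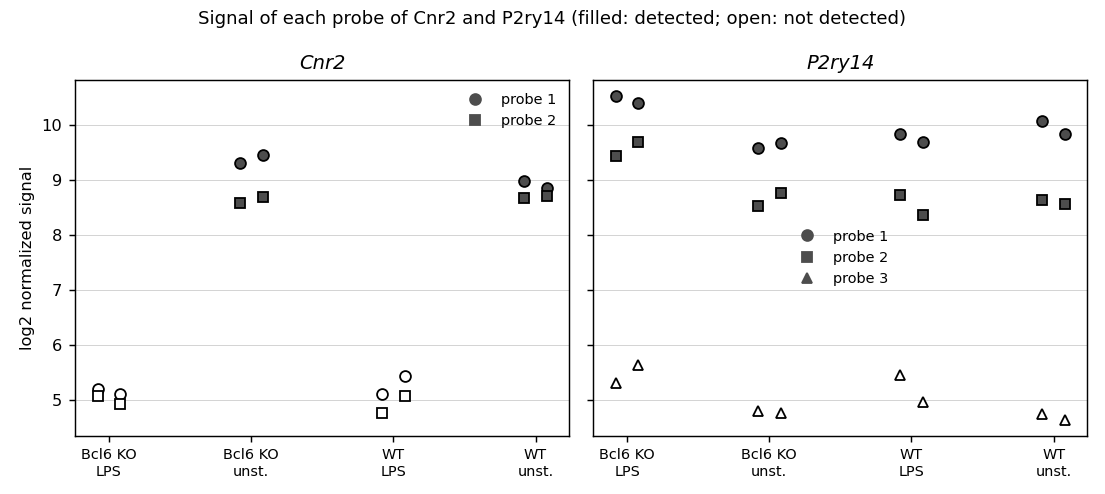
Log2 normalized signal (vertical axis) of each probe of Cnr2 (left) and P2ry14 (right) on the 8 arrays by group, with 1 symbol shape per probe and open symbols where a probe was not detected. Both Cnr2 probes are below detection on all 4 LPS arrays, and both detected P2ry14 probes are highest on the LPS arrays labelled BCL6KO.

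Some receptors lie inside or beside other genes. Lpar6 lies within the span of Rb1, Gpr183 within that of Ubac2 and P2ry14 within that of Med12l, while Ccr1 and Ccr2 sit near Ccr3, Cxcr6 and Xcr1 on chromosome 9. Rb1, the retinoblastoma cell-cycle regulator, changed with LPS by -0.42 ± 0.12 in the cells labelled BCL6KO and by -0.68 ± 0.12 in wild-type cells. Ubac2 changed by -0.29 ± 0.12 in the cells labelled BCL6KO and by -0.060 ± 0.12 in wild-type cells, and Med12l did not pass the detection filter. Neither Rb1 nor Ubac2 reached 2-fold in either genotype.

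Of 15 listed host and neighbour genes tested, 4 rose and 0 fell with LPS in the cells labelled BCL6KO, and 5 rose and 0 fell in wild-type cells. Over all tested genes 7.49% rose and 7.36% fell in the cells labelled BCL6KO, and 7.52% rose and 6.5% fell in wild-type cells. The list is a selection that leaves out other tested neighbours, such as Zranb3 near Cxcr4 and Relt near P2ry6. Gpr18, a lipid receptor beside Gpr183 in the same host gene, rose with LPS in wild-type cells by 2.57 ± 0.16 (adjusted p = 3.93e-06), and in the cells labelled BCL6KO its change did not reach 2-fold. P2ry2, a nucleotide receptor next to P2ry6, was at least 1.55-fold higher with LPS in the cells labelled BCL6KO (adjusted p = 0.00186) and changed by 0.023 ± 0.19 in wild-type cells. P2ry13, an ADP receptor in the P2ry14 cluster, changed with LPS by -0.65 ± 0.11 in the cells labelled BCL6KO and by 0.54 ± 0.11 in wild-type cells. The transcriptional regulator Csrnp1 near Cx3cr1 rose with LPS by 2.46 ± 0.11 in the cells labelled BCL6KO and by 2.57 ± 0.11 in wild-type cells (adjusted p at most 5.54e-07). Fchsd2 near P2ry6 rose by 1.51 ± 0.14 in the cells labelled BCL6KO and by 1.21 ± 0.14 in wild-type cells (adjusted p at most 0.000145). Srsf10, a splicing factor gene near Cnr2, rose in wild-type cells by 1.11 ± 0.17 by its brightest probe (adjusted p = 0.000704). Another kept Srsf10 probe overlapped, at 6.41 and 5.85 on wild-type LPS arrays against 6.34 and 6.09 on unstimulated ones. A further kept probe read 6.58 and 6.61 with LPS, against 6.27 and 6.16 without. Fyco1, Slc25a38, Pnrc2, Mcm6 and Itm2b stayed under 2-fold with LPS in both genotypes, each by its brightest probe. Another kept Mcm6 probe fell past 2-fold in the cells labelled BCL6KO. It read 8.15 and 8.33 on their LPS arrays, against 9.69 and 9.64 on the unstimulated ones. Ccrl2 and Ltf were on this list too, but neither is among the 6 nearest genes on either side of a receptor. Ccrl2 is among the genes counted as risen in both genotypes.

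Other receptors of the same classes were counted from lists by class. Of 18 other chemokine receptors on the array only 3 were tested. Ccrl2, an atypical receptor that binds chemerin, rose with LPS by 3.98 ± 0.15 in the cells labelled BCL6KO and by 4.06 ± 0.15 in wild-type cells (adjusted p at most 2.74e-07). Cxcr3 was at least 1.39-fold lower in wild-type cells (adjusted p = 0.000247). In the cells labelled BCL6KO it was at least 1.05-fold lower (adjusted p = 0.000579), with a fitted change under 2-fold. Of 4 tested receptors for other leukocyte attractants, 3 rose and 0 fell in the cells labelled BCL6KO, and 2 rose and 0 fell in wild-type cells. Fpr2, a formyl peptide receptor, changed by 4.11 ± 0.12 in the cells labelled BCL6KO and by 2.67 ± 0.12 in wild-type cells (adjusted p at most 8.4e-07). Ptafr, the receptor for platelet-activating factor, changed by 1.09 ± 0.14 in the cells labelled BCL6KO and by 1.25 ± 0.14 in wild-type cells (adjusted p at most 0.000298).

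Of 10 other lipid receptors tested, 3 rose and 1 fell with LPS in the cells labelled BCL6KO, and 4 rose and 0 fell in wild-type cells. Hcar2, a receptor for hydroxybutyrate and niacin, rose by 3.19 ± 0.15 in the cells labelled BCL6KO and was at least 7.69-fold higher in wild-type cells (adjusted p at most 8.08e-07). Lpar1, which binds the same ligand as Lpar6, rose by 2.95 ± 0.11 in the cells labelled BCL6KO and was at least 4.58-fold higher in wild-type cells (adjusted p at most 9.3e-07). Gpr84, a receptor for medium-chain fatty acids, rose by 2.54 ± 0.11 in the cells labelled BCL6KO and by 2.30 ± 0.11 in wild-type cells (adjusted p at most 1.05e-06). The sphingosine-1-phosphate receptor S1pr2 changed by -1.29 ± 0.14 in the cells labelled BCL6KO (adjusted p = 0.000105). In wild-type cells S1pr2 changed by -0.88 ± 0.14 (adjusted p = 0.00104), under 2-fold. Of 5 other nucleotide and adenosine receptors tested, 1 rose and 1 fell in the cells labelled BCL6KO, and 0 rose and 2 fell in wild-type cells. P2ry1, an ADP receptor, changed by -1.42 ± 0.13 in the cells labelled BCL6KO and by -1.18 ± 0.13 in wild-type cells (adjusted p at most 0.000114). P2rx7, an ATP-gated channel, was at least 1.35-fold lower with LPS in wild-type cells (adjusted p = 0.000799).

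**Figure D3:**
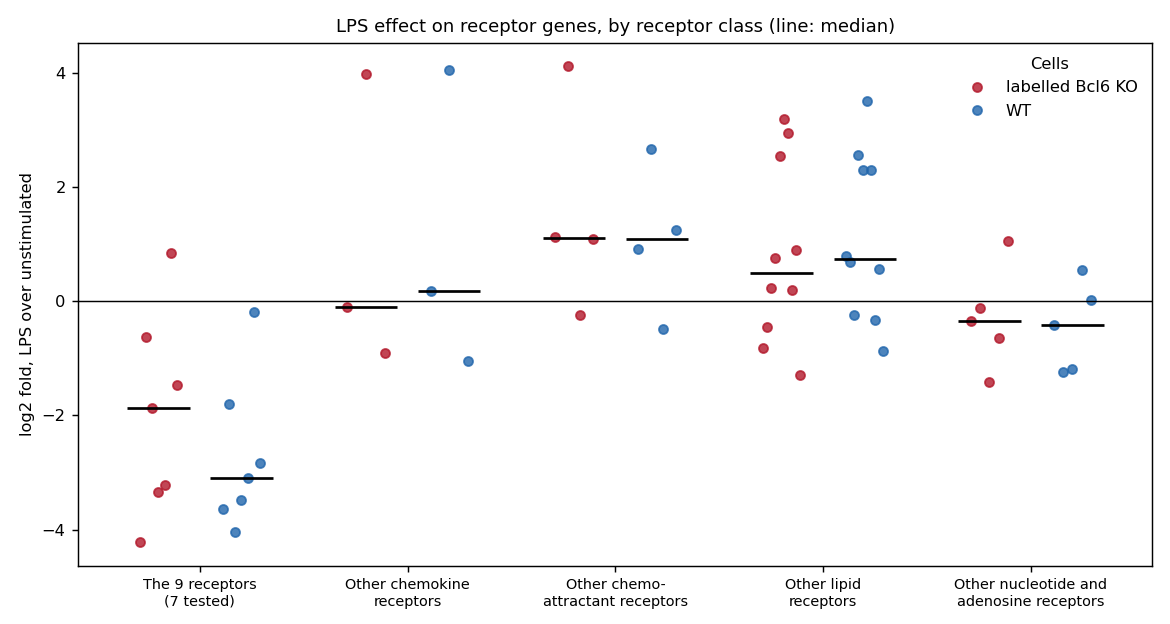
Log2 fold of LPS over unstimulated cells (vertical axis) for the tested genes of each receptor class, in cells labelled BCL6KO and in wild-type cells. Points are genes, values are as fitted without bounds, and lines are medians. The medians of the 9-gene set are -1.86 in the cells labelled BCL6KO and -3.09 in wild-type cells, and those of the other lipid receptors 0.49 and 0.74; the 9-gene set was chosen on this contrast.

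Cells labelled BCL6KO were next set against wild type within each treatment. This contrast did not choose the genes, but its arrays entered the LPS changes that did. Counts of receptors called in it are therefore not independent of the choice. With LPS, 2 of the 7 tested receptors were called higher and 0 lower. Over all tested genes 6.19% were higher and 4.97% lower, 11.2% in all. Median scaling between arrays gave 318 higher and 769 lower genes, against 514 and 413 after quantile normalization, with a median over all genes of -0.29 against -0.028. Both receptors were still called.

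Cxcr4 differed most among the receptors. Its probe read 8.34 and 8.46 on the LPS arrays labelled BCL6KO, against 5.71 and 5.57 on the wild-type LPS arrays, which were below detection. Cxcr4 was at least 5.78-fold higher, with a fitted change of 2.76 ± 0.14 (adjusted p = 1.63e-06). Across the alternatives in processing the change was 1.55 to 2.87, and the lower end of this range is smaller than the stated bound. Of 11 granulocyte markers tested, 4 were lower and 1 higher in LPS-stimulated cells labelled BCL6KO. Their summed signal was 10197 to 10901 on the LPS arrays labelled BCL6KO, against 18893 to 19043 on the wild-type LPS arrays. The sum is weighted towards the brightest, S100a8 and S100a9. On the log2 scale these had means of 12.7 and 11.2 on the LPS arrays labelled BCL6KO, against 13.5 and 11.7 on the wild-type LPS arrays. The part of the granulocyte markers in the Cxcr4 result was not tested. Of 9 T and NK cell markers on the array 1, the cytotoxic granule gene Prf1, was detected, on all 8 arrays. Prf1 was named after its values were seen and changed by 0.98 ± 0.19 (adjusted p = 0.00339), under 2-fold. The summed signal of these markers was 428 to 445 on the LPS arrays labelled BCL6KO, against 301 to 345 on the wild-type LPS arrays, with Cd3e, Cd3d and Ncr1 below detection throughout. Of 6 mast cell and basophil markers 1, the growth factor receptor Kit, was detected, on wild-type arrays alone, with a sum of 172 to 174 on the LPS arrays labelled BCL6KO, against 175 to 208 on the wild-type LPS arrays. The part of these markers in the Cxcr4 result was not tested. No marker of dendritic cells, B cells, fibroblasts or endothelium was detected in any group.

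Mcm6, a replication helicase gene 2 genes away from Cxcr4, had probes that disagreed between genotypes. One probe was below detection on all 4 arrays labelled BCL6KO, at 4.64 to 4.79, and read 8.69 to 9.48 on the 4 wild-type arrays. Its brightest probe read 8.77 to 9.83 on the arrays labelled BCL6KO and 8.97 to 9.76 on wild-type arrays, and another kept probe 8.15 to 9.69 on the arrays labelled BCL6KO and 8.90 to 9.79 on wild-type arrays. A further probe was detected on no array. The part of this difference in the Cxcr4 result was not tested.

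P2ry6 was the other receptor called higher in LPS-stimulated cells labelled BCL6KO. Its probe read 10.72 and 10.82 there, against 9.35 and 9.58 in wild-type cells with LPS, with no overlap. The change was 1.31 ± 0.14 (adjusted p = 0.000129), or 2.47-fold. P2ry14 read 10.52 and 10.40, against 9.84 and 9.68 in wild-type cells, a change of 0.70 ± 0.12 (adjusted p = 0.00219) that did not reach 2-fold. Its second probe gave 1.01 ± 0.16, or 2.02-fold, with an adjusted p of 0.00134 over all kept probes.

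For Lpar6 the difference from wild type on LPS arrays was 0.26 ± 0.15 (adjusted p = 0.188), with a value of -0.060 under median scaling. Gpr183, Cnr2 and Cx3cr1 were below detection on all 4 LPS arrays, so no fold is given for them. Among other lipid receptors, the difference from wild type with LPS was -2.59 ± 0.16 for Gpr18 and 2.03 ± 0.15 for Hcar2. For the leukotriene receptor Cysltr1 it was -1.56 ± 0.11 (adjusted p at most 1.6e-05 for each). Of the nucleotide receptors, P2ry13 differed by 1.11 ± 0.11 (adjusted p = 0.000113) and P2rx7 was at least 1.23-fold higher (adjusted p = 0.00192).

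Without stimulation, 1 of the 7 tested receptors was called lower in the cells labelled BCL6KO and 0 were called higher. Over all tested genes 3.96% were lower and 4.54% higher, 8.5% in all. Cx3cr1 read 5.30 and 6.08 on the unstimulated arrays labelled BCL6KO, with 1 of 2 detected, against 7.24 and 7.04 on the unstimulated wild-type arrays. The groups did not overlap, and the change was -1.45 ± 0.25 (adjusted p = 0.00233). Without background correction it was -0.67 and with the authors' processed values -0.73, in both cases under 2-fold. Of 11 granulocyte markers tested, 9 were lower and 0 higher, with summed signals of 8853 to 9683 in the unstimulated cells labelled BCL6KO and 23299 to 26142 in unstimulated wild-type cells. The granulocyte precursor genes Elane, Prtn3 and Cebpe were below detection on all 4 arrays labelled BCL6KO. Other genes of the same list stayed detectable there. S100a8, S100a9, Ltf, Ngp and Camp were detected on all 8 arrays and Mpo on 6. Without stimulation Mpo had a mean of 5.83 in the cells labelled BCL6KO and 8.48 in wild-type cells. Kit, the 1 detected mast cell marker, was at least 1.62-fold lower (adjusted p = 2.4e-05). The part of these markers in the Cx3cr1 result was not tested, and in bulk RNA fewer cells of a type and less RNA per cell cannot be told apart.

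The other receptors stayed under 2-fold without stimulation. Cxcr4 read 10.44 and 10.09 on the arrays labelled BCL6KO, against 9.71 and 9.65 on the wild-type arrays, a change of 0.58 ± 0.14 (adjusted p = 0.0111). Cnr2 changed by 0.45 ± 0.14 (adjusted p = 0.0298), while its second probe gave -0.060 ± 0.14 (adjusted p = 0.769). Gpr183 changed by -0.32 ± 0.11 (adjusted p = 0.0463), P2ry14 by -0.33 ± 0.12 (adjusted p = 0.0684) and Lpar6 by 0.38 ± 0.15 (adjusted p = 0.0762). P2ry6 read 12.36 and 12.11 in the cells labelled BCL6KO, against 12.20 and 12.39 in wild-type cells, with overlap and a change of -0.062 ± 0.14 (adjusted p = 0.757).

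**Figure D4:**
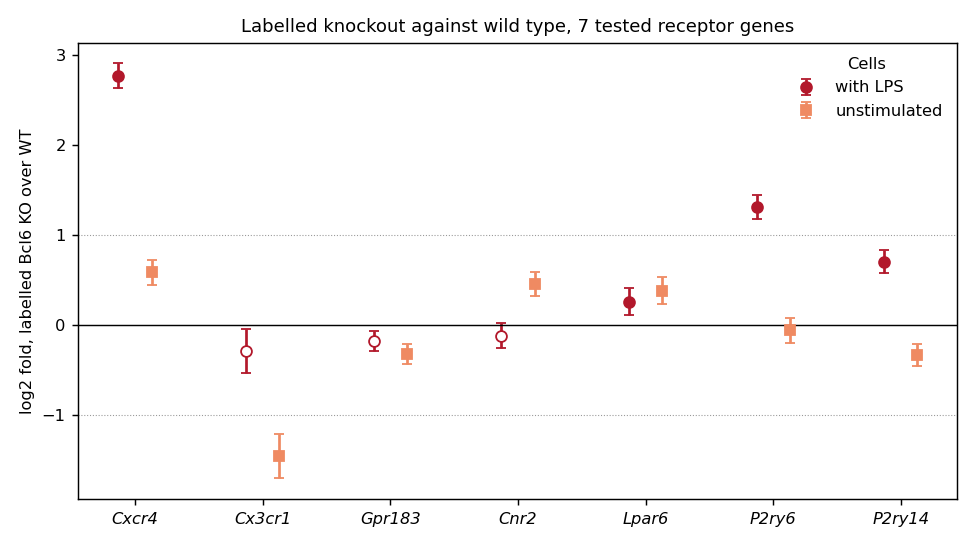
Log2 fold of cells labelled BCL6KO over wild type (vertical axis) for the 7 tested receptors, with LPS and unstimulated. Points are fitted changes, bars are standard errors, open points mark receptors below detection in both groups, and dotted lines mark 2-fold. With LPS, Cxcr4 at 2.76 and P2ry6 at 1.31 lie above the upper line, and Cx3cr1 at -1.45 lies below the lower line in unstimulated cells.

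Whether the difference from wild type changed with LPS was tested directly, as the difference with LPS minus the difference without, on the same arrays. This value equals the LPS change in the cells labelled BCL6KO minus that in wild-type cells, and so reuses the values that chose the genes. Counts of receptors called here are therefore not independent of that choice. The call was made for 3 of the 7 tested receptors towards higher values with LPS and for 0 towards lower ones. Over all tested genes 1.96% were called higher and 1.87% lower, 3.83% in all. Median scaling gave 97 higher and 316 lower genes, against 163 and 155, and 2 of the receptors were then called. Cxcr4 gave 2.18 ± 0.19 (adjusted p = 0.0006), a fitted value that rests on wild-type LPS arrays below detection. It was 1.02 without background correction and 1.12 with the authors' processed values, close to the 2-fold limit, and at most 2.35 under the other alternatives. P2ry6 gave 1.37 ± 0.19 (adjusted p = 0.00497). P2ry14 gave 1.03 ± 0.18 (adjusted p = 0.0109), close to the 2-fold limit, and its second probe 0.98 ± 0.23 (adjusted p = 0.0355), just under it. The P2ry14 value was 0.83 to 0.9998, under 2-fold, without background correction, with an offset of 50, with median scaling and with the authors' processed values. The same held without wild-type unstimulated replicate 1, wild-type LPS replicate 2, BCL6KO unstimulated replicate 1 or BCL6KO LPS replicate 1, with an adjusted p of at most 0.0437.

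The remaining receptors gave no call. Cx3cr1 gave 1.16 ± 0.35 (adjusted p = 0.0813), and 1.55 (adjusted p = 0.0281), a call, without BCL6KO unstimulated replicate 2. Cnr2 gave -0.57 ± 0.19 (adjusted p = 0.11), while its second probe gave 0.14 ± 0.19 (adjusted p = 0.696), with the opposite sign. Gpr183 gave 0.15 ± 0.15 (adjusted p = 0.602) and Lpar6 -0.12 ± 0.21 (adjusted p = 0.76). For Cx3cr1, Cnr2 and Gpr183 these fitted values rest on LPS arrays below detection.

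The receptors were also compared by their signal over the 8 arrays, as a description, since the arrays are 4 groups of technical pairs. Cxcr4 and P2ry6 had r = 0.972 with each other, and Gpr183, Cnr2 and Lpar6 had r of 0.983 to 0.990 among themselves. P2ry14 had r below 0 with every other tested receptor. The genes most like Cxcr4 were Arhgap25 (r = 0.994) and Irf2bpl (r = 0.991). Those most like P2ry6 were Zc3h12d (r = 0.993) and Zfp36l1 (r = 0.991), which encode proteins of messenger RNA decay. For Gpr183 they were Zdhhc14 (r = 0.998) and Rab26os (r = 0.998), for Cnr2 Slc46a3 (r = 0.999) and Rab28 (r = 0.997), and for Lpar6 Lmo2 (r = 0.997) and Zfp637 (r = 0.997). For Cx3cr1 they were Gabpb2 (r = 0.986) and Rps14 (r = 0.985), and for P2ry14 Vrk3 (r = 0.971) and Zyx (r = 0.970).

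Ligands of the receptors and the enzymes that make or remove them were listed apart. Of 19 tested, 7 were higher and 1 lower in LPS-stimulated cells labelled BCL6KO relative to wild type, and 9 were higher and 1 lower without LPS. Over all tested genes 6.19% were higher and 4.97% lower with LPS, and 4.54% higher and 3.96% lower without. The CC chemokines Ccl2, Ccl6, Ccl7, Ccl8 and Ccl12 were among the higher ones with and without LPS. Ccl2 and Ccl7, ligands of Ccr2, which was itself not detected, differed by 7.07 ± 0.16 and 7.32 ± 0.099 with LPS (adjusted p at most 2.25e-08). Ch25h, which makes the precursor of the main Gpr183 ligand, moved opposite to Gpr183 with LPS, by 2.79 ± 0.12 in the cells labelled BCL6KO and 2.07 ± 0.12 in wild-type cells (adjusted p at most 2.58e-06). Relative to wild type, Ch25h was higher in the cells labelled BCL6KO by 1.84 ± 0.12 with LPS and by 1.12 ± 0.12 without (adjusted p at most 0.000168). Daglb, which makes an endocannabinoid ligand of Cnr2, changed with LPS by -1.59 ± 0.15 in the cells labelled BCL6KO and by -1.33 ± 0.15 in wild-type cells (adjusted p at most 0.000118).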

How the data were processed

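The authors deposited 2 tables, per the file headers. The first gives the mean intensity of the beads of every probe on each array, without normalization. The authors also deposited a detection p-value for each, set against the negative controls of the array. The second gives the authors' processed intensity. Its medians of 121 on every array show that the arrays were normalized to each other, by a method that no source names. The submitters' processing notes name GenomeStudio. Here raw intensity was background-corrected with nec (limma 3.58.1, R 4.3.3; offset 16), put on the log2 scale and quantile-normalized. Probes detected at p under 0.01 on 2 or more arrays were kept (14418 of 45281). Of these, 12542 had 1 gene in the platform annotation, with symbols updated through RefSeq, and the brightest probe represented each of 8306 genes. A limma model with 1 mean per group gave all contrasts, adjusted by Benjamini-Hochberg over these genes. For a lower bound, each dim array entered at its lowest detected signal, or at the probe's own signal if higher. The receptors and gene lists were chosen with earlier results of these data known. Named were all receptors, their tested listed neighbours, the 2 genes most correlated with each and up to 4 called genes of each list per contrast. The model was run on simulated data with normal noise of its own fitted spread. Such data meet its assumptions, so this run cannot show whether the model suits these arrays. With arrays, precision is limited by how many there are. Same-numbered technical replicates did not deviate together (r of -0.031 to 0.0084), so they were not paired.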

Additional observations from a re-analysis of the deposited data

Results flagged for a closer look

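The difference between cells labelled BCL6KO and wild type was itself different with and without LPS for Cxcr4 (2.18 on the log2 scale), P2ry6 (1.37) and P2ry14 (1.03), by the test of that difference in the limma model. That difference reuses the LPS changes that chose the genes, so it is not independent of the choice. The Cxcr4 value rests on a wild-type LPS group below detection and was 1.02 without background correction. No test of a sample standing apart from its group was possible with 2 arrays a group.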

How the results depend on the processing

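The calls of Cxcr4 and P2ry6, with LPS and for the difference between treatments, were made under all 18 alternatives. The call of Cx3cr1 without stimulation was lost, leaving 0 receptors called, without background correction, with the authors' processed values, and with detection required on at least 4 arrays, where Cx3cr1 was not tested. The count of genes for the difference between treatments, 318, was 122 without background correction, 197 with an offset of 50, 530 with every kept probe tested and 120 with the authors' processed values. For the labelled knockout with LPS, 927 genes became 412 without background correction, 1456 with every kept probe tested and 419 with the authors' processed values. Without stimulation, 706 became 327 without background correction and 340 with the authors' processed values. The LPS counts, 1233 in the cells labelled BCL6KO and 1165 in wild-type cells, became 641 and 635 without background correction, and 651 and 637 with the authors' processed values. Small uncalled values changed sign. The difference of Lpar6 from wild type with LPS was -0.060 under median scaling. With single arrays left out, the Lpar6 difference between treatments ran from -0.32 to 0.081. The P2ry6 difference from wild type without stimulation then ran from -0.19 to 0.063. The cause of these changes was not tested. Median scaling over the tested genes, added after seeing the data, left the receptor counts at 2 with LPS and 3 for the difference. The technical replicate number as a block left the same receptor counts, with 316 genes called for the difference between treatments. Slide as a block was not run, since the headers give no slide. Where 1 array was left out, the lone array was assumed to vary like the other groups.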

Other observations

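Of 26 tested genes for G proteins, their regulators and desensitisation factors, 1 rose and 2 fell with LPS in the cells labelled BCL6KO, and 3 rose and 3 fell in wild-type cells. Over all tested genes 7.49% rose and 7.36% fell in the cells labelled BCL6KO, and 7.52% rose and 6.5% fell in wild-type cells. Nothing is read from the counts of this list, and the genes below are named as single values. The G-protein regulator Rgs2 was at least 1.65-fold lower with LPS in the cells labelled BCL6KO and at least 1.19-fold lower in wild-type cells (limma's adjusted p at most 0.000927), and Rgs16 was at least 1.86-fold higher in wild-type cells (adjusted p = 1.27e-05). Arrb1, a beta-arrestin that ends receptor signalling, changed by -1.39 ± 0.22 in wild-type cells (adjusted p = 0.000891). Pik3cg, a lipid kinase driven by such receptors, rose by 1.18 ± 0.11 in the cells labelled BCL6KO (adjusted p = 3.82e-05). Relative to wild type, Rgs3 changed by -1.39 ± 0.25 with LPS and by -1.24 ± 0.25 without in the cells labelled BCL6KO (adjusted p at most 0.00603), Gna13 by -1.11 ± 0.12 with LPS (adjusted p = 0.000165), and the receptor kinase Grk5 was at least 1.35-fold lower with LPS (adjusted p = 0.0164).

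Among chemoattractant receptors outside the set, Fpr2 and C5ar1 were lower in the cells labelled BCL6KO than in wild type. Fpr2 changed by -1.21 ± 0.12 with LPS and by -2.65 ± 0.12 without, and C5ar1, the receptor for C5a, by -1.24 ± 0.12 with LPS and by -1.44 ± 0.12 without (limma's adjusted p at most 0.000109). Granulocytes also express both genes, and the part of the lower granulocyte markers in these values was not tested. P2ry13 changed by 2.30 ± 0.11 without LPS (adjusted p = 2.19e-06).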
